A study of Mus musculus with 4 samples.

Results

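Macrophages sorted from early-stage PyMT mammary tumors were compared with macrophages sorted from remodeling mammary glands without tumor, in mice whose macrophages were labelled as having lost both copies of Ets2. The comparison is the log2 value on the array titled Ets2-null_tumor minus the log2 value on the array titled Ets2-null_no tumor, with 1 array on each side. Each gene was represented by 1 probe set, a group of short probes against 1 transcript. A gene was counted where the brighter of the 2 arrays lay at or above the median of that array, and 7203 of the 12393 genes measured were counted (58.1%). The same difference between the 2 arrays labelled Ets2-wildtype, which shares no array with this comparison, was set beside it for 7253 counted genes and is called the Ets2-expressing pair.

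PyMT is the polyoma virus middle T oncogene, which drives mammary tumors in mice, and the tumor stage is labelled early. Both arrays compared here carry the source label that 2 copies of Ets2 were deleted, and the design text places the deletion in the macrophages. Of the arrays used for comparison, the remodeling one is labelled wild type, and the tumor one is titled wild type while its source label gives 1 copy of Ets2. All 4 RNA samples came from cells that carried yellow fluorescent protein (YFP) as a macrophage label and were collected by fluorescence-activated sorting. Before hybridization about 10 ng of RNA went through cDNA amplification (NuGEN Ovation), and 1 RNA sample was made for each group. The number of mice pooled, the promoter behind the YFP and the deletion, the deleted exons, and the stage of remodeling (after weaning or otherwise) are not given in the sources used here. Single arrays leave no replicate check, so no p-value was computed, and "higher" and "lower" describe these arrays.

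Macrophages in a mammary gland clear dying epithelium and milk, rebuild the matrix and guide the growth of ducts. In a mammary tumor they are recruited and retained by factors such as CSF1, and they release growth factors, proteases and angiogenic factors that are associated with invasion. ETS2 is a transcription factor that is activated downstream of CSF1 receptor and RAS signalling and acts on protease and immediate early genes. The comparison asks how tumor and remodeling macrophages differ where Ets2 is labelled absent from both.

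The targeted gene was bright on all 4 arrays and within 2-fold between them. The single Ets2 probe set read 12.97 on the remodeling array and 12.67 on the tumor array, against 13.24 and 12.77 on the Ets2-wildtype remodeling and tumor arrays. A probe set outside the deleted exons would not check the deletion, and whether this one lies outside or inside them is not known. The labels could not be checked with it, and its bright values on both Ets2-deficient arrays remain unexplained. The tumor minus remodeling difference for Ets2 was -0.29.

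The median over all 22690 probe sets was 5.98 on the remodeling array and 6.30 on the tumor array, and the 2 arrays had a Pearson correlation of 0.972 across probe sets. The 25th percentile was 4.29 on both arrays, and values below it are treated here as background. The 16 hybridization control probe sets, which read bacterial and phage RNA added in fixed amounts, averaged 9.05 on the remodeling array and 9.28 on the tumor array. For Actb, the control probe set at the 3′ end exceeded the one at the 5′ end, a gap that grows as RNA or cDNA is shorter, by 2.96 on the remodeling array and 3.54 on the tumor array, and for Gapdh by 1.80 and 2.27. Both gaps were larger on the tumor array, and the part of this in the differences below was not tested. Where a gene had several bright probe sets, their differences had a median SD of 0.176 and a pooled SD of 0.320 log2 over 2456 genes, a technical error without any part from mice, sorting or amplification.

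The difference was lopsided. Of the 7203 counted genes, 548 (7.61%) were higher on the tumor array by 2-fold or more and 116 (1.61%) were lower by as much. Higher genes thus made up 82.5% of the 664 genes (9.22%) past 2-fold. In the Ets2-expressing pair 448 of 7253 counted genes were higher (6.18%) and 377 lower (5.2%). Beyond 4-fold there were 241 higher and 8 lower genes, and beyond 16-fold 43 higher and 1 lower. This split depended on how the arrays were scaled. After each array was centred on its own median, which moved the median of all genes by -0.32, 395 genes were higher and 382 lower (50.8% higher). After centring on the hybridization controls the counts were 429 and 283 (60.3% higher), and after quantile normalization 459 and 183 (71.5% higher). Differences in the text are in the deposited scale, and a difference within about 0.3 of 0 has no settled sign. Counts of list members below are to be read beside the 7.61% higher and 1.61% lower among all counted genes.

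Many of the higher genes read below the array median on the remodeling array, which does not mean that they had no signal there. Among the 395 genes that reached the array median on the tumor array alone, 319 were past 2-fold. These genes were counted through the array where they are high, which favours a difference past 2-fold. Among the 6605 genes that reached the median on both arrays 229 were higher and 85 lower. For 56 of the 548 higher genes and 2 of the 116 lower genes the dimmer array read below the 25th percentile, so that the size of those differences is not exact. Of the 130 genes past 2-fold with at least 2 bright probe sets, 126 had all of these in 1 direction and 96 had all of them past 2-fold. Among the 100 counted genes nearest the brightness limit 21 were past 2-fold, and among the 100 genes just below the limit 23 were. At the 2-fold limit itself, Lss and Ptges2 lay just inside and Smyd5 just outside (0.998) among higher genes, and Syne1 lay inside and Akap9 outside (-0.998) among lower genes.

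**Figure D1:**
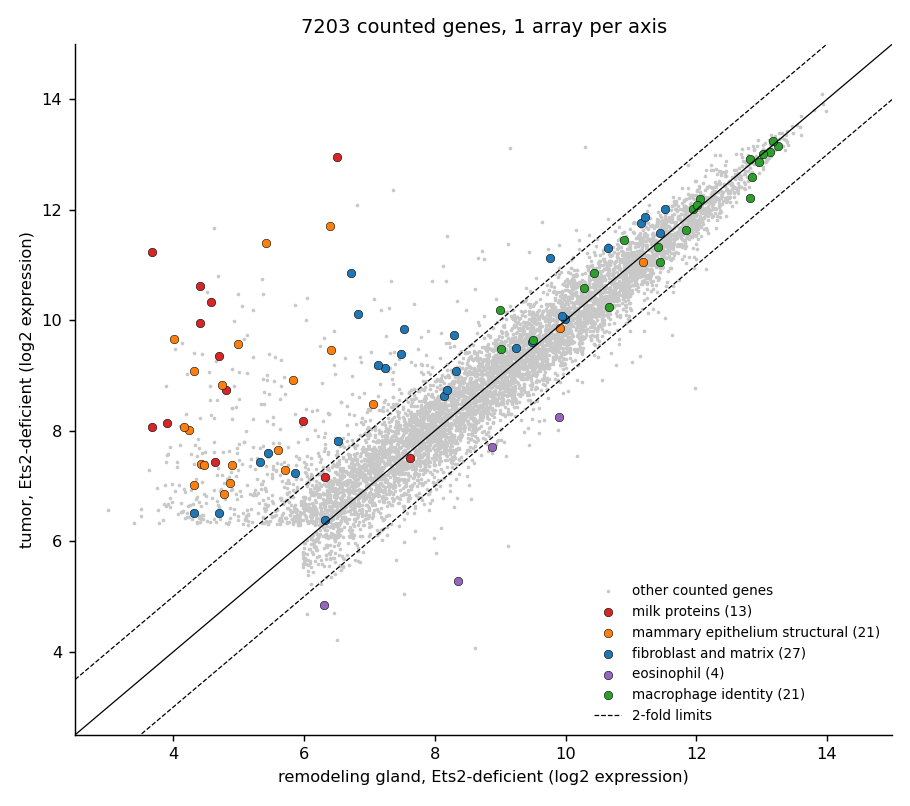
Each of the 7203 counted genes is a point at its log2 value on the remodeling array (horizontal axis) and the tumor array (vertical axis), both labelled Ets2-deficient, with 1 array for each axis and dashed lines at 2-fold. Macrophage identity genes (green) follow the diagonal, most milk protein genes (red) and epithelial genes (orange) lie far above it at remodeling values that are mostly under 7, and eosinophil-associated genes (purple) lie below it.

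Genes that define macrophages were bright and close to level on the 2 arrays. Of 24 macrophage identity genes, 22 were measured and 21 counted. The median of the measured genes was 11.90 on the remodeling array and 11.82 on the tumor array. Csf1r, the receptor for the macrophage growth factor CSF1, read 13.25 on the remodeling array and 13.14 on the tumor array. The complement gene C1qb read 13.12 and 13.05, and the lysozyme gene Lyz2 read 13.02 on both. The F4/80 gene Adgre1 read 11.45 and 11.06, and the lysosomal protein gene Cd68 read 11.95 and 12.02. The median difference of the list was 0.07 beside 0.01 for all genes, and it turned to -0.25 after median centring. The fractalkine receptor gene Cx3cr1 was the 1 member past 2-fold, at 8.99 on the remodeling array and 10.19 on the tumor array (difference 1.20). Itgam, the integrin chain CD11b, was the measured member too dim to count. The labelled cell type was thus borne out by its markers on both arrays.

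Milk protein genes were among the highest of the comparison. Caseins, whey acidic protein and alpha-lactalbumin are made by the secretory epithelium of the breast during lactation, under prolactin and the transcription factor STAT5, and are not known as macrophage products. Of 17 milk protein genes, 15 were measured and 13 counted, and 11 of these were at least 2-fold higher on the tumor array and 0 lower. The median difference over the 15 measured was 4.24. Only 4 of the 13 counted reached the array median on both arrays, and 2 of those were higher past 2-fold. The others were counted through the tumor array alone, where they are high, which favours a difference past 2-fold. Csn2, which encodes beta-casein, read 3.68 on the remodeling array and 11.24 on the tumor array, a difference of 7.56 that is the largest of all counted genes. The remodeling value lies in the background range and the second probe set of Csn2 gave a difference of 3.54, so the direction is firmer than the size. Csn3, the micelle-capping kappa-casein, read 6.50 on the remodeling array and 12.96 on the tumor array (6.46, or 87.9-fold).

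Other milk genes were below the array median on the remodeling array and well above it on the tumor array. The alpha-S2-casein gene Csn1s2a read 4.58 and 10.33 (difference 5.75), Wap, the whey acidic protein, read 4.42 and 9.95 (5.53), and Lalba, the lactose synthase subunit alpha-lactalbumin, read 4.71 and 9.36 (4.65). Csn1s1, alpha-S1-casein, read 3.67 and 8.06 (4.39). Muc15, a membrane mucin found in milk fat globules, read 4.40 and 10.61 (6.21). Mucl1, a small secreted mucin of mammary cells, read 3.91 and 8.15 (4.24), and it was as dim on the Ets2-expressing tumor array (3.82) as on the remodeling arrays. Casein probe sets of the kind that can bind several transcripts may share signal between caseins. Xdh, the milk fat globule enzyme xanthine dehydrogenase that other cells also make, did not follow the caseins, at 7.62 and 7.51.

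In bulk RNA of this kind, a larger share of another cell type in the sorted population, more RNA for each such cell, and material taken up by macrophages cannot be told apart. Where the milk RNA was made, and whether it was taken up by macrophages, was not tested.

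Promoter sequence is shown for 3 milk genes, the caseins Csn2 and Csn1s1 and the whey protein gene Wap, because STAT5 is a known activator of genes of this kind and the windows can be searched for its site. The windows are the 250 bases before the transcription start in RefSeq (GRCm38.p6), written 5′ to 3′ on the strand of the gene, and capitals mark matches to TTCNNNGAA, the gamma-activated site that STAT proteins bind, which reads the same on both strands. The Csn2 window lies at chr5:87699426-87699675 on the minus strand, the Csn1s1 window at chr5:87665958-87666207 on the plus strand and the Wap window at chr11:6638650-6638899 on the minus strand.
Csn2: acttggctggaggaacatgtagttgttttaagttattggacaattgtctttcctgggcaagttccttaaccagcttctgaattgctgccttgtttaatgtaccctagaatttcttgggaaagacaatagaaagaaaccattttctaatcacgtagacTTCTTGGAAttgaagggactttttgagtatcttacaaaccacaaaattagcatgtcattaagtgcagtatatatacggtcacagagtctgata
Csn1s1: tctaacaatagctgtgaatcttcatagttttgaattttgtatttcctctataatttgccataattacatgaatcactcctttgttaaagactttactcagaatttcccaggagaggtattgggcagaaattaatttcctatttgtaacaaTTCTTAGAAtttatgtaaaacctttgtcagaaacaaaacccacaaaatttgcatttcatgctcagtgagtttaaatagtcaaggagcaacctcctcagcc
Wap: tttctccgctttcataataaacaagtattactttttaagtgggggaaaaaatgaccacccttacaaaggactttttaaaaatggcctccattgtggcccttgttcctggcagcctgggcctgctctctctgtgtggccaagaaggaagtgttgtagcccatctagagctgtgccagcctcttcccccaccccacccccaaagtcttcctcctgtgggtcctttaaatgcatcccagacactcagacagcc
The match starts 93 bases before the transcription start in Csn2 and 100 bases before it in Csn1s1, and the Wap window holds none. Of the 8 measured milk genes with a RefSeq window, 3 held a match (Csn2, Csn1s1 and Glycam1). Matches occurred in 7.02% of all 32851 RefSeq promoter windows, in 7.31% of the 9887 genes on the arrays with a window, in 28 of the 403 higher genes with one (6.95%) and in 3 of the 88 lower genes (3.41%). The share among all higher genes was thus close to that among all genes, and a match is a description of letters and not of binding.

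Structural genes of the mammary epithelium were higher with the milk genes. Of 32 such genes, 30 were measured and 21 counted, and 19 were at least 2-fold higher and 0 lower, with a median difference of 2.22 over the 30. Only 5 of the 21 reached the array median on both arrays, and 3 of those were higher past 2-fold. The others were counted through the tumor array alone, where they are high, which favours a difference past 2-fold. The simple-epithelium keratin Krt8 read 5.41 on the remodeling array and 11.39 on the tumor array, and its 3 probe sets differed by 5.98 to 6.23. Its partner Krt18 read 6.41 and 11.71 (5.30). Epcam, the epithelial adhesion molecule, read 4.75 and 8.83 (4.08), and Cldn7, a tight junction protein, read 5.00 and 9.57 (4.57). Keratin 7 (Krt7) read 4.24 and 8.01 (3.77). The genes in this list include both layers of the ducts, since luminal keratins and the basal keratins Krt5 and Krt14 were all among the 19.

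Transcription factors of the mammary lineages were also bright on the tumor array. Elf5, an ETS factor that directs the milk-secreting lineage, read 4.31 on the remodeling array and 9.09 on the tumor array (4.77). Ehf, another epithelial ETS factor, read 6.41 and 9.46 (3.05). Sox9, a factor of mammary stem and luminal progenitor cells, read 4.68 and 10.80 (6.12), though its second probe set was dim on both arrays. Sox10, which marks mammary progenitor and myoepithelial cells and also Schwann cells, read 4.01 and 9.66 (5.65). Tfap2c, a factor of luminal cells, read 5.22 and 10.18 (4.96). Esrp1, the splicing factor that sets epithelial isoforms, read 4.99 and 10.47 (5.48). The hormone receptor genes Esr1 and Pgr were too dim to count on both arrays, as were Foxa1 and Gata3. The remaining genes among the 25 highest were largely of epithelial or secretory type, among them the ion transport regulator Fxyd3 (5.22), the membrane protease Tmprss13 (5.10), the potassium channel Kcnk1 (5.07), the cartilage-type collagen Col9a1 (5.44), Plet1 (5.46), Plekhb1 (4.81) and the secretoglobin Scgb2b27 (4.91), which has near-identical copies.

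**Figure D2:**
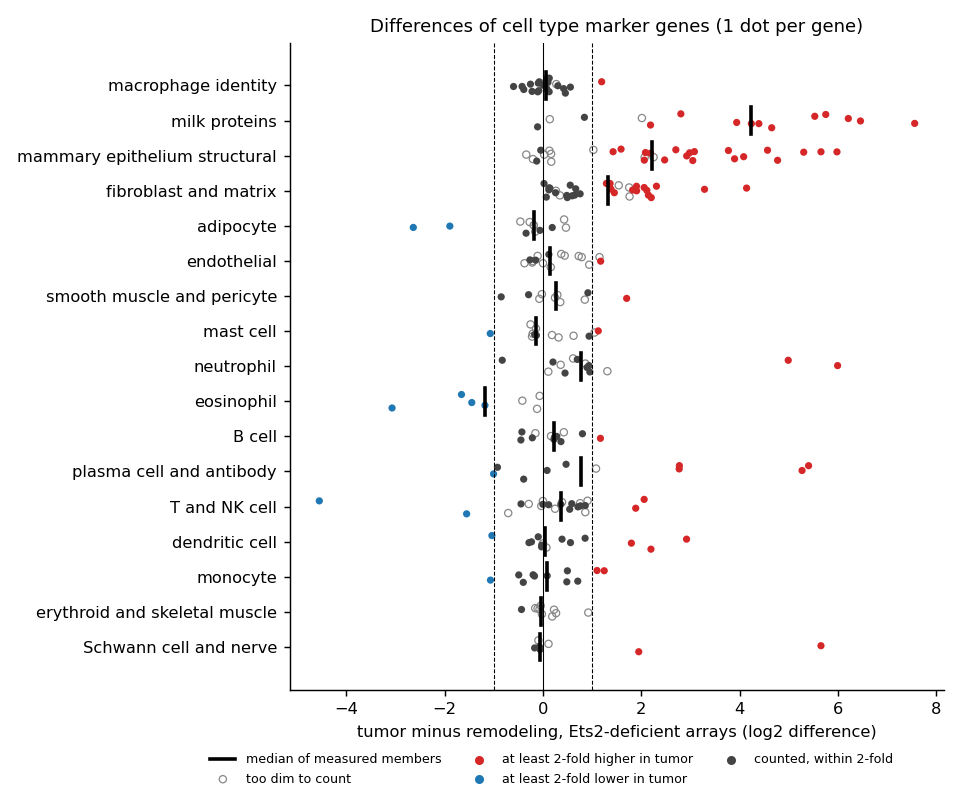
Each dot is 1 marker gene at its tumor minus remodeling log2 difference on the Ets2-deficient arrays (horizontal axis), arranged by cell type list; filled dots were counted, open dots were too dim, and bars are medians over the measured genes. Milk proteins (median 4.24), epithelium (2.22) and fibroblast and matrix genes (1.33) lie to the right, eosinophil-associated genes (-1.18) to the left, and macrophage identity genes around 0.07.

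Most markers of other cell types were dim or within 2-fold, but several lists held members past it. Of 16 endothelial genes measured, 4 were counted, and Pecam1 (4.60 and 4.39), Cdh5 (4.96 on both) and Kdr (5.20 and 4.83) were in the dim range of the remodeling and tumor arrays. Tek, the angiopoietin receptor, was the 1 endothelial gene past 2-fold (5.41 and 6.58, difference 1.17). The adipocyte hormone gene Adipoq was also dim (4.69 and 4.54), as was the hemoglobin gene Hba-a1 (4.15 and 4.10). Among smooth muscle genes Acta2 was higher (difference 1.70), and among mast cell genes Cma1 was higher (1.13) and Gata2 lower (-1.07). Dendritic cell genes had 3 of 12 counted members higher and 1 lower, and T and NK cell genes 2 of 13 higher and 2 lower. Of 14 measured neutrophil genes 13 lay above 0 (median 0.78), and 2 were higher past 2-fold. Both of these, Ltf and Lcn2, are also made by mammary epithelium. The neutrophil calgranulins S100a8 (11.87 and 12.80) and S100a9 (12.28 and 12.98) lay 0.94 and 0.70 higher on the tumor array, short of 2-fold. T cell receptor genes Cd3d (8.65 and 9.42) and Cd3e (10.39 and 10.97) and the B cell gene Cd79b (8.91 and 8.70) were bright on both arrays, which is a measured sign of lymphocyte RNA in both sorts. Its part in the differences was not tested.

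Secreted defense proteins formed the next group of higher genes. Of 21 acute-phase and secreted defense genes, 20 were measured and 14 counted, with 8 higher and 0 lower past 2-fold and a median difference of 0.60. Of the 14 counted, 9 reached the array median on both arrays, and 3 of those were higher past 2-fold. The serum amyloid A gene Saa1, an acute-phase lipoprotein that can attract leukocytes, read 4.63 on the remodeling array and 11.67 on the tumor array (7.04), and its other bright probe set differed by 5.16. Saa2 read 5.38 and 10.47 (5.10), although these 2 genes are near-identical and their probe sets may share signal. Saa3, the form that macrophages and adipose tissue make, read 6.47 and 9.80 (3.34). Lactoferrin (Ltf), an iron-binding protein of milk and neutrophil granules, read 4.52 and 10.51 (5.99). Lipocalin 2 (Lcn2), which captures bacterial iron carriers, read 7.36 and 12.35 (4.99). Lrg1, a leucine-rich glycoprotein that acts on vessels, read 7.33 and 10.71 (3.38). Lyz1, Lyz2 and Slpi, which also belong to this list, were within 0.2 of level.

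Antibody genes were higher without most B cell genes. Igha, the constant region of immunoglobulin A, read 6.82 on the remodeling array and 12.08 on the tumor array, and its 3 probe sets differed by 5.27 to 7.45. Jchain, which joins IgA and IgM into polymers, read 5.35 and 10.76 (5.40). Pigr, the epithelial receptor that carries polymeric IgA into milk, read 4.35 and 7.12 (2.77). Fkbp11, a chaperone of secretory cells, read 4.17 and 6.95 (2.77). In the plasma cell and antibody list 4 of 9 counted genes were higher and 1 lower, and the median over the 10 measured genes was 0.78. Irf4, which plasma cells and macrophages both use, was the lower one at 11.73 and 10.73, and the plasma cell genes Xbp1 (10.09 and 10.56) and Sdc1 (10.42 and 10.51) were within 2-fold.

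Immunoglobulin M gave mixed readings. The brightest Ighm probe set read 10.26 and 10.49, while 4 other counted probe sets read 4.20 to 4.48 on the remodeling array and 7.06 to 8.38 on the tumor array. Those 4 were dim on both Ets2-expressing arrays, at 4.11 to 4.74. Of 12 measured B cell genes, Cd22 was the 1 past 2-fold (6.57 and 7.74, difference 1.17). Immunoglobulin probe sets can bind related constant or variable regions, so these values are uncertain as measures of single genes.

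Among genes of macrophage activation, a small set was higher while the larger programs were level. Gpnmb, a glycoprotein of lipid-laden and tumor macrophages, read 8.13 on the remodeling array and 10.98 on the tumor array (2.85, or 7.19-fold). Itgax, the integrin chain CD11c carried by dendritic cells and by macrophages of growing ducts and tumors, read 9.44 and 11.24 (1.80). Mmp12, the macrophage elastase, read 8.94 and 10.38 (1.44). The other higher genes of macrophage type included Vsig4, the complement receptor CRIg that also restrains T cells, at 6.47 and 9.20 (2.73). Arg1, the arginase that consumes the arginine T cells need, read 4.86 and 7.63 (2.78). Havcr2, the checkpoint receptor TIM-3, read 6.12 and 8.35 (2.23). Gpnmb, Itgax and Mmp12 were above the median on both arrays.

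Most members of the lists to which these genes belong were within 2-fold. For scale, 7.61% of all counted genes were higher and 1.61% lower. Among lipid-associated macrophage genes 3 of 18 counted were higher and 2 lower, with a median of 0.37. Trem2, the lipid-sensing receptor, read 8.13 and 8.66, and Apoe, its lipoprotein ligand, 11.95 and 12.08. Of the alternative activation genes 3 of 18 counted were higher and 0 lower (median -0.14), and the classical markers of that state, Retnla (13.60 and 13.36), Mrc1 (12.85 and 12.59) and Cd163 (12.82 and 12.22), lay slightly lower on the tumor array. Ccl17, a chemokine for T helper cells, was the exception with Arg1, at 7.31 and 10.23 (2.92). The interleukin-4 receptor chain Il4ra read 8.23 and 9.51 (1.27). Classical activation genes had 4 of 15 higher and 0 lower, with a median of 0.20 that turned to -0.11 after median centring. Among them were the itaconate enzyme Acod1 (6.66 and 8.45), the interleukin-12 subunit Il12b (4.52 and 6.36) and the alarmin Il1a (8.22 and 9.60), whereas Il1b (11.46 and 11.66) and Ptgs2 (11.49 and 10.96) were within 2-fold.

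Genes for the uptake and export of lipids and dead cells held several differences in both directions. Mfge8, the milk fat globule protein that bridges dying cells to phagocytes, read 8.72 and 11.26 (2.54), and its integrin receptor chain Itgb5 read 8.76 and 11.11 (2.35, with 4 probe sets between 2.08 and 2.64). Mfge8 is made by macrophages and by mammary epithelium alike. The list of the receptor LXR and cholesterol efflux had 4 of 11 counted genes higher and 0 lower, with a median of 0.13. Srebf1, the regulator of fatty acid synthesis, read 7.38 and 9.42 (2.05), and Scd2, a desaturase, read 8.34 and 10.34. The others were the apolipoproteins Apoc2 (9.74 and 11.29) and Apoc1 (7.03 and 8.44). On the other side stood Cd36, a scavenger receptor for oxidized lipid and dying cells, at 11.41 and 10.15 (-1.26), and Olr1, another receptor for oxidized LDL, at 8.02 and 5.79 (-2.23).

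**Figure D3:**
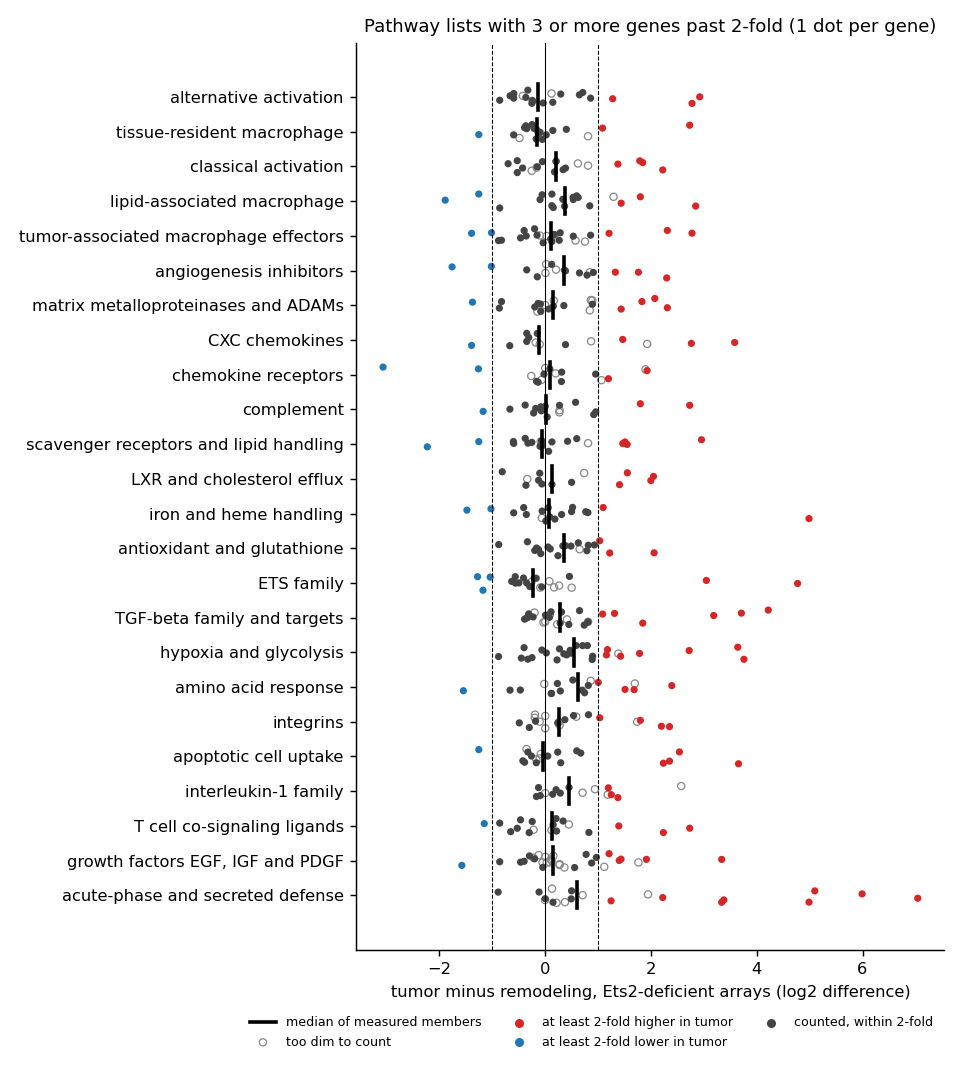
Each dot is 1 gene at its tumor minus remodeling log2 difference on the Ets2-deficient arrays, for the 24 pathway lists with at least 3 genes past 2-fold; filled dots were counted, open dots were too dim, and bars are medians over measured genes. In most lists a few genes lie past 2-fold while the bar stays near 0, and the bars farthest right are those of amino acid response (0.61), acute-phase (0.60), and hypoxia and glycolysis genes (0.54).

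Extracellular matrix genes were higher on the tumor array, in a direction that the other pair of arrays did not share. Of 33 fibroblast and matrix genes 32 were measured, and all 32 lay above 0, with 14 of the 27 counted ones higher past 2-fold, 0 lower and a median of 1.33. Of the 27 counted, 22 reached the array median on both arrays, and 9 of those were higher past 2-fold. The median level of the 32 was 7.36 on the remodeling array and 9.17 on the tumor array. On the Ets2-expressing arrays the same median was 9.52 in remodeling and 8.98 in tumor, so that the Ets2-deficient remodeling array was the 1 array of the 4 with a low matrix level. The median difference in that other pair was -0.74, with 1 gene higher and 12 lower.

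Matrix genes differed among themselves. Mgp, an inhibitor of calcification that epithelium also makes, read 6.71 on the remodeling array and 10.85 on the tumor array (4.14), and it was higher in the other pair too (7.92 and 10.25). Bgn, the proteoglycan biglycan, read 6.83 and 10.12 (3.29). Col6a2, a chain of the beaded collagen VI, read 7.53 and 9.84 (2.31). The collagen and elastin crosslinking enzyme Lox read 5.46 and 7.60 (2.15) and elastin (Eln) 5.32 and 7.44 (2.11). The fibrillar collagens were bright on both arrays with smaller differences: Col1a2 read 9.76 and 11.13 (1.37), Col3a1 read 10.64 and 11.31 (0.67) and the main Col1a1 probe set 11.16 and 11.76 (0.59). Thy1, a surface protein of fibroblasts and T cells, read 7.14 and 9.20 (2.06). Whether matrix genes came from macrophages or from fibroblasts in the sort was not tested.

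Several growth factors and their carriers were higher. In the list of EGF, IGF and PDGF family genes 5 of 16 counted members were higher and 1 lower. In the Ets2-expressing pair 0 of 17 were higher and 6 lower. Ccn2, the matrix growth factor CTGF, read 4.45 and 9.38 (4.94). Of the TGF-beta family and its targets, with 3 higher and 3 lower in the Ets2-expressing pair, 6 of 20 counted genes were higher and 0 lower. These were the activin subunit Inhbb (4.89 and 9.11), Tgfb3 (4.57 and 8.28), Tgfb2 (7.45 and 9.30, with a second bright probe set at 1.02) and the latent binding proteins Ltbp1 (7.88 and 9.19), Ltbp2 (4.36 and 7.54) and Ltbp3 (10.20 and 11.29). The receptor Tgfbr2 (11.52 and 11.60) and the target Tgfbi (12.64 on both) were level. The insulin-like growth factor carriers Igfbp5 (8.19 and 11.53), Igfbp7 (7.49 and 9.40), Igfbp6 (5.84 and 7.28) and Igfbp3 (4.99 and 6.39) were higher, while Igf1 itself, a product of macrophages, read 11.55 and 10.69. In the Ets2-expressing pair Igfbp5 differed by 0.43, Igfbp7 by -0.59, Igfbp6 by -1.40 and Igfbp3 by -0.19. Each of these carriers read lower on the Ets2-deficient remodeling array than on any other array. Egfr, the receptor for EGF, was lower at 10.78 and 9.20 (-1.58), although another of its bright probe sets was level (-0.02).

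Proteases and regulators of vessels included members past 2-fold in both directions, beside 7.61% higher and 1.61% lower among all counted genes. Among 15 counted matrix metalloproteinase and ADAM genes 4 were higher and 1 lower: Mmp14, the membrane-bound activator of gelatinase A (4.99 and 7.30), Mmp3 (4.67 and 6.74), Mmp2 (7.32 and 9.14) and Mmp12 were higher, and Adam19 (10.26 and 8.88) lower. The gelatinase Mmp9 read 11.96 and 11.14. In the Ets2-expressing pair 2 of 17 counted members of this list were higher and 6 lower. There Mmp2 (10.0 and 9.4) and Mmp3 (6.9 and 6.6) lay lower in tumor, and Mmp14 (6.5 and 7.4) and Mmp12 (7.8 and 9.9) higher. Angiogenesis inhibitors had 3 of 13 higher and 2 lower, against 0 and 5 of 14 in the Ets2-expressing pair. The protease inhibitor Timp1 (4.86 and 7.16), the signalling brake Spry2 (6.93 and 8.69) and the thrombospondin Thbs2 (6.79 and 8.12) were higher, and the thrombospondin Thbs1 (7.34 and 6.32) and the inhibitor Timp4 (6.46 and 4.70) lower. In the Ets2-expressing pair Timp1 read 6.5 in remodeling and 6.2 in tumor, and Spry2 read 8.9 and 8.3. Angiogenesis promoters had a median of -0.22 with 1 of 14 past 2-fold, the platelet-derived growth factor Pdgfb (5.40 and 6.60). Cathepsins were level apart from Ctse (9.92 and 8.88), with Ctsb at 13.20 and 13.33.

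Chemokines differed gene by gene. Cxcl13, which attracts B cells, read 7.95 and 10.72 (2.76), and its 2 probe sets gave 2.76 and 2.86. Cxcl14, an epithelial chemokine, read 5.00 and 8.58 (3.58). Cxcl16, a membrane-bound chemokine that also binds oxidized lipid, read 9.90 and 11.36 (1.47). Lower on the tumor array were Ccl2, the main attractant of monocytes (11.97 and 10.95, difference -1.02), and Cxcl12, the ligand of Cxcr4 (9.37 and 7.98, -1.39). The chemokines Ccl6 (13.16 and 13.20), Ccl9 (13.09 on both) and Ccl8 (12.70 and 13.10), were level. The monocyte receptor Ccr2 also was (10.06 and 10.15).

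Metabolic lists lay slightly higher on the tumor array. Hypoxia and glycolysis genes had 7 of 25 counted members higher and 0 lower, with a median of 0.54 (0.22 after median centring). The glycolytic enzymes Ldha (10.65 and 11.83), Hk1 (7.90 and 9.06) and Aldoa (12.23 and 12.81) lay higher on the tumor array, the first 2 of them past 2-fold. Aldoc (3.95 and 7.70) and the carbonic anhydrase Car12 (4.10 and 7.75) were in the background on the remodeling array and above the median on the tumor array. The hypoxia targets Vegfa (8.37 and 7.49) and Slc2a1 (11.54 and 12.01) were within 2-fold and on opposite sides. Amino acid response genes had 4 of 15 higher and 1 lower (median 0.61). Asparagine synthetase (Asns) read 7.03 and 9.42 (2.39) and the serine synthesis enzyme Phgdh 7.16 and 8.84 (1.68), but the stress factor Ddit3 was lower (7.53 and 5.98, -1.55) and the regulator Atf4 read 11.99 and 11.52.

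Of the 59 counted genes of the respiratory chain and ATP synthase, 54 lay above 0, with a median over the 60 measured of 0.36 (0.04 after median centring). Of the 4 counted genes below 0, only Ndufs5, a subunit of complex I, was past 2-fold (9.12 and 5.91, difference -3.21). Its single probe set read 8.86 and 8.57 on the Ets2-expressing arrays. In the cholesterol synthesis list 2 of 13 were higher and 0 lower, with a median of 0.49. Among all counted genes the shares were 7.61% higher and 1.61% lower. Antioxidant genes had 3 of 19 higher and 0 lower, among them Nqo1, a quinone reductase under NRF2 (7.09 and 9.15, difference 2.06).

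The 116 lower genes were fewer and their differences smaller. Ms4a4b, a membrane protein of T cells, had the lowest difference, with 8.62 on the remodeling array and 4.08 on the tumor array (-4.55). It was dim on both Ets2-expressing arrays (3.93 and 4.04), and its other probe set was dim on all arrays, so this value rests on 1 probe set of 1 array. Beyond it, 3 genes were lower by more than 8-fold, namely Ndufs5, Rnase2a and Ccr3. Rnase2a, an eosinophil-type ribonuclease, read 11.98 and 8.78 (-3.20). Ccr3, the eotaxin receptor, read 8.35 and 5.28 (-3.07).

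Eosinophil-associated genes were lower as a group. Of 11 listed genes 7 were measured and 4 counted, and all 4 counted genes were lower past 2-fold, with a median of -1.18 over the 7, all of which lay below 0. Beside Ccr3 these were Siglecf, a sialic acid lectin of eosinophils and some macrophages (9.90 and 8.25), the interleukin-5 receptor chain Il5ra (6.30 and 4.85) and the lipoxygenase Alox15, which some macrophages also make (8.88 and 7.70). Ccr3 and Il5ra were counted through the remodeling array alone, where they are high, which favours a difference past 2-fold. Siglecf and Alox15 reached the array median on both arrays. The granule protein genes Epx, Prg2 and Prg3 were in or near the background on both arrays, with Epx at 4.45 and 4.03. F5, coagulation factor V, was lower as well (11.14 and 9.35, -1.78), and so was Gata1, a factor of eosinophil, mast and red cells (8.10 and 6.24, -1.86).

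Other lower genes came from several lists. Fabp4, a fatty acid carrier of adipocytes and macrophages, read 11.63 and 9.73 (-1.89, with both bright probe sets alike). Car3, a carbonic anhydrase abundant in fat, read 10.18 and 7.54 (-2.63). These 2 were the lower members of the adipocyte list, whose hormone genes were dim. Slc40a1, the iron exporter ferroportin, read 11.52 and 10.04 (-1.48), and Spic, the ETS factor that directs iron-recycling macrophages, read 8.60 and 7.42 (-1.18). The transferrin receptor Tfrc read 11.64 and 10.62 (-1.03), while the ferritin gene Fth1 (12.58 and 12.59) and Hmox1 (11.90 and 11.85) were level. In the iron and heme list 2 of 17 counted genes were higher and 2 lower, beside 7.61% and 1.61% of all counted genes. Hpgd, which inactivates prostaglandins, read 11.02 and 9.24 (-1.78). The macrophage adhesion receptor Adgre4 (10.56 and 8.93, -1.63) and the lectin Cd209b of resident macrophages (10.82 and 9.57, -1.26) were lower too. Serpinb2, an inhibitor of plasminogen activators, ended in the background (6.51 and 4.21, -2.30).

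Among all counted genes 7.61% were higher and 1.61% lower. Within the ETS family to which the deleted gene belongs, 2 of 16 counted genes were higher and 3 lower, and the median over 22 was -0.24. The higher ones were the epithelial factors Elf5 and Ehf. The lower ones were Spic, Spib, a factor of B cells and plasmacytoid dendritic cells (9.49 and 8.21), and Elf4 (7.89 and 6.85). Etv3 (11.85 and 11.50) and Fli1 (10.91 and 10.27) were within 2-fold. Immediate early and AP-1 genes, which ETS2 is known to act on, lay mostly below 0 (21 of 28 measured, median -0.23), with Nr4a2 as the 1 of 23 past 2-fold (7.68 and 6.52). Egr1 read 13.13 and 12.97 and Dusp1 13.35 and 13.07, both near the top of the range.

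Several programs had no counted member past 2-fold, beside 9.22% either way among all counted genes. In a short list a count of 0 lies near that share. The number counted and the median over all measured members are given in brackets. These programs were interferon response (24, -0.15), mitosis (18, 0.06), DNA replication (21, 0.20), lysosome (25, 0.15) and cytosolic ribosomal proteins (30, 0.05). MHC class II (12, 0.18), MHC class I (13, 0.17), NF-kappa-B feedback (15, -0.20) and Fc receptor genes (11, 0.09) were the others. Median centring moved every difference by -0.32, after which all of these medians were below 0, as was the median of all genes (-0.31). Rsad2, an antiviral enzyme, read 10.73 and 10.26, the mitotic gene Top2a 11.65 and 11.40, and the class II invariant chain Cd74 13.60 and 13.69. Clock genes of the Per and Nr1d phase had 1 of 9 past 2-fold (Usp2, 6.61 and 7.71), with a median of -0.30. In the Ets2-expressing pair their median was -1.42, with 7 lower. The times of day at which the glands were taken are not given in the sources used here.

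**Figure D4:**
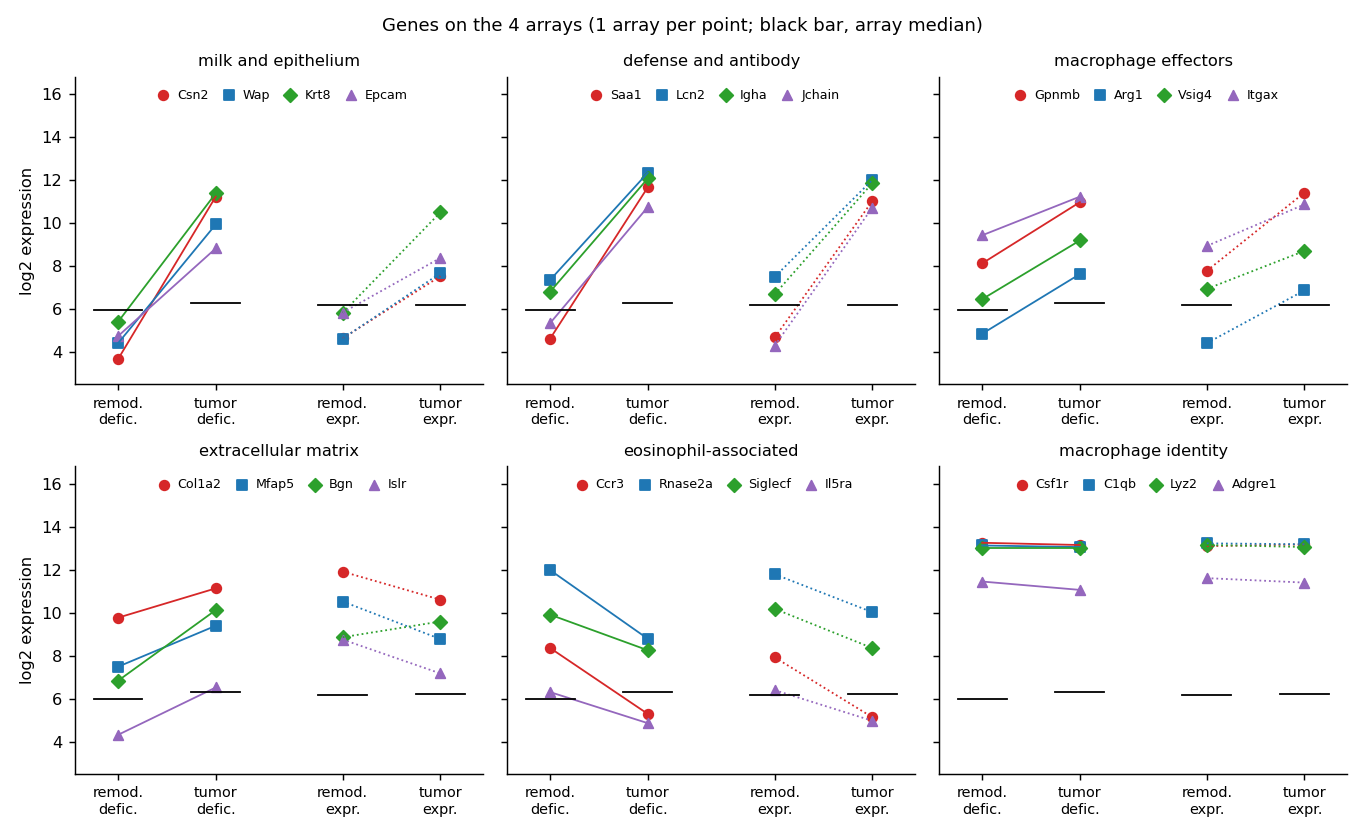
Log2 values of 24 genes on the 4 arrays, with solid lines for the Ets2-deficient pair, dotted lines for the Ets2-expressing pair, 1 array for each point and black bars at the array medians. Milk, defense and macrophage effector genes read higher in tumor than in remodeling in both pairs, eosinophil-associated genes read lower in both, macrophage identity genes are level, and Col1a2, Mfap5 and Islr slope in opposite directions.

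The tumor minus remodeling difference was also taken between the Ets2-expressing arrays, from separate RNA samples, and shared part of its genes with the Ets2-deficient pair. Of the 6990 genes counted in both pairs, 452 (6.47%) were higher past 2-fold in the Ets2-deficient pair and 404 (5.78%) in the other, and 202 were higher in both, which is 44.7% of the first list and 50% of the second. For lower genes the counts were 111 (1.59%) and 289 (4.13%), with 43 in both, or 38.7% of the first list and 14.9% of the second. Of the 452 higher genes 350 had the same sign in the other pair, and of the 111 lower genes 98 did. Past 2-fold in opposite directions were 38 of the 452 and 1 of the 111. A further 96 higher and 5 lower genes were too dim to count in the other pair.

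Epithelial, defense and macrophage effector genes were among those higher in both pairs. Saa1 differed by 7.04 in the Ets2-deficient pair and 6.35 in the other, Jchain by 5.40 and 6.42, Krt8 by 5.98 and 4.67, and Gpnmb by 2.85 and 3.64. Arg1 (2.78 and 2.46), Itgax (1.80 and 1.93) and Itgb5 (2.35 and 2.63) had differences of similar size. The eosinophil-associated genes Ccr3 (-3.07 and -2.79), Siglecf (-1.66 and -1.82) and Il5ra (-1.45 and -1.43) were lower in both. So were Olr1 (-2.23 and -2.17), Gadd45a, a p53 target (-1.64 and -1.68), and Ccl2 (-1.02 and -1.56).

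Caseins were higher by more in the Ets2-deficient pair. The milk list had a median of 4.24 here and 1.80 in the other pair, with Csn2 at 7.56 and 2.89, Wap at 5.53 and 3.04, and Csn1s2a at 5.75 and 2.44. Wfdc21, a small secreted protein on the milk list, was past 2-fold in opposite directions (2.19 and -1.94). Other genes past 2-fold here were near 0 in the other pair. Among these, Asns differed by 2.39 and 0.07, Ccl17 by 2.92 and -0.31, Hspb1, a small heat shock protein, by 2.56 and 0.18, Fabp4 by -1.89 and -0.13, Car3 by -2.63 and -0.47, and Slc40a1 by -1.48 and -0.24. Most matrix genes past 2-fold here had the opposite sign in the other pair, with Bgn (3.29 and 0.73) and Mgp as exceptions. No error can be set on any difference between the pairs, because each rests on 4 single arrays, and these differences were not tested.

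**Figure D5:**
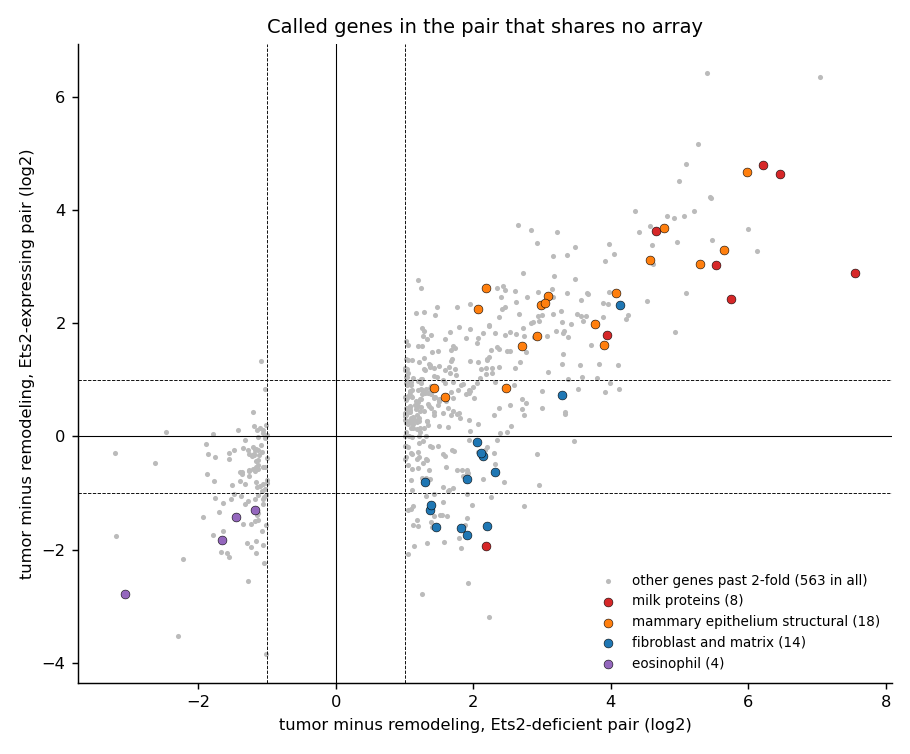
Each point is 1 of the 563 genes past 2-fold in the Ets2-deficient pair and counted in both pairs, at its tumor minus remodeling log2 difference in the Ets2-deficient pair (horizontal axis) and in the Ets2-expressing pair (vertical axis), with dashed lines at 2-fold. Epithelial genes (orange) are above 0 in both pairs, eosinophil-associated genes (purple) below 0 in both, and most matrix genes (blue) are above 0 in the first and below 0 in the second.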

How the data were processed

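The deposited values are log2 expression values per probe set, which the authors submitted in the series' value table. GCOS and RMA are named in the submitters' processing notes, and versions, roles and whether these 4 arrays alone were normalized together are not given in the sources used here. The values were used as deposited. Probe sets were named through the platform annotation and RefSeq, with 20364 probe sets matched, and 20380 that named exactly 1 gene were used. Where a gene had several probe sets, the one with the highest 4-array mean stood for it. Differences were computed with Python 3.11.15 and pandas 2.3.3, counted by the brightness rule and called at 2-fold. The call procedure was run on simulated arrays with changes planted only in genes well above the array medians and with no scale shift between arrays. That run does not show how changes near the brightness limit, or arrays on different scales, are called. The 67 gene lists and the alternatives were chosen with earlier results of these data known. List medians cover all measured members.

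Named genes are the 25 highest and 25 lowest past 2-fold, up to 8 members past 2-fold in each direction and the 3 brightest of each list, the 3 markers named first in each cell type list, and Ets2. Other names were chosen after their values were seen. The 2246 probe sets tied to no gene or to several genes were examined apart. Of these, 974 were bright, 59 higher and 26 lower past 2-fold.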

Additional observations from a re-analysis of the deposited data

Results flagged for a closer look

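For 15 genes chosen by the naming rule the difference was past 2-fold in opposite directions in the 2 pairs of arrays, higher in tumor in the Ets2-deficient pair and lower in tumor in the Ets2-expressing pair. With 1 array for each group the difference between the pairs was not tested. The soluble pattern-recognition protein Ptx3 differed by 2.22 in the Ets2-deficient pair and -3.18 in the Ets2-expressing pair, and the chemokine-scavenging receptor Ackr3 by 1.93 and -2.59. The hyaluronan-binding proteoglycan Vcan differed by 1.25 and -2.78. The matrix genes Col1a2 (1.37 and -1.30), Islr (2.20 and -1.58), Mfap5 (1.91 and -1.75), Thbs2 (1.33 and -1.88) and Ltbp1 (1.31 and -1.04) had this pattern, as did Tgfb2 (1.84 and -1.63) and the growth factor carrier Igfbp6 (1.43 and -1.40). The others were the itaconate enzyme Acod1 (1.79 and -1.80), the mast cell chymase Cma1 (1.13 and -1.22), the ferritin receptor Scara5 (1.55 and -1.38), the angiopoietin receptor Tek (1.17 and -1.48) and the lipoprotein receptor Vldlr (1.51 and -1.38). On the Ets2-deficient remodeling array each of the 15 read lower than on the Ets2-expressing one, with Ackr3 at 6.38 against 10.92 and Ptx3 at 4.96 against 10.73. Wfdc21, which the naming rule does not take in, had the same pattern (2.19 and -1.94).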

How the results depend on the processing

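With 1 array for each group no replicate could be left out, and no error covers animals, sorts or amplification. No paired analysis was possible because each group has 1 array and the result comes from no test. The count of 548 higher genes became 154 when only genes above the 75th percentile were counted, 1145 at 1.5-fold, 327 at 3-fold and 229 where both arrays had to reach their medians, a setting chosen after seeing the data. The count of 116 lower genes became 382 after median centring, 283 after centring on the hybridization controls, 183 after quantile normalization, 56 above the 75th percentile, 559 at 1.5-fold, 22 at 3-fold and 73 with the mean of all probe sets of a gene. All 116 lower genes were also lower under each of the 3 scalings. For median and control centring this was fixed in advance, since they moved every difference by -0.32 and -0.23. Of the 180 named genes past 2-fold, 155 stayed past it after median centring, 160 after centring on the controls and 167 after quantile normalization. None of them turned sign, which the 2 centrings could not have done to differences of this size. With only probe sets that have no letter suffix, 3 turned sign because dim probe sets alone were left, namely Csn1s2a (-0.319), Fkbp11 (-0.173) and Mgst1 (-0.086). Medians of the milk, epithelium, matrix and eosinophil lists kept their direction under every setting, and here too the 2 centrings could not have turned them. Signal near background limits the size of differences for the 58 genes past 2-fold whose dimmer array lay below its 25th percentile.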
